A study of Rattus norvegicus with 22 samples.

Results

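The genes described here are the ribosome biogenesis factors measured in rat lung after acute pulmonary embolism (PE). They were chosen by a rule on the symbol, with earlier results of these data known. It takes every gene whose annotated symbol belongs to the numbered Nop, Nol, Utp and Rrp series, is Nolc1, Noc2l, Noc3l or Noc4l, or is one of Fbl, Dkc1, Nhp2, Gar1, Emg1, Pes1, Bop1, Wdr12, Npm1, Ncl, Nip7, Mrto4, Rrs1 and Ebna1bp2. The rule found 52 genes with a value among the 14217 genes measured. Npm1 is named on 3 probe sets only together with a pseudogene, so no value is given for it. Nol3, Nol4 and Nol4l match the rule by name but have no settled role in making ribosomes, and they are reported apart from the rest.

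RNA came from the right lungs of 22 male Sprague-Dawley rats of about 350 g, as the labels give their weight, with 1 array per rat, and the rats' age was not given in the sources used here. PE was produced by injecting polystyrene microspheres of 25 micron into the jugular vein, at a dose per 100 g of body weight of 1300000 for Mild PE and 2000000 for Severe PE, suspended in 0.01% Tween 20. Vehicle rats received only the 0.01% Tween 20, in the volume used for Severe PE (0.15 ml per 100 g). Mild PE rats received 0.10 ml per 100 g, so Mild PE also differed from Vehicle and from Severe PE in the volume injected. Lungs were taken 2 h or 18 h later, and each time had 3 rats with Vehicle, 4 with Mild PE and 4 with Severe PE. All lungs, Vehicle included, had been lavaged with 8 ml of saline before excision, so cells free in the airways were in part removed. Beads block vessels without any clot, which limits the groups as a model of thromboembolism.

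Ribosomes are made in the nucleolus. RNA polymerase I transcribes one long precursor RNA, which small nucleolar ribonucleoproteins (snoRNPs) of the box C/D and box H/ACA classes modify by methylation and pseudouridylation. The small subunit processome then assembles on its 5′ end and cuts out the small ribosomal subunit, while a separate set of factors, among them the PeBoW complex, matures the large subunit. Genes for these factors are expressed in all dividing and growing cells, and their transcription is known to follow Myc and nutrient signals.

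Levels are log2 array signals after quantile normalization, with a lowest possible value of 4, and differences are differences of group means on that scale with their standard error (SE). A gene passed the test at a Benjamini-Hochberg adjusted p under 0.05, in limma, with at least a 1.5-fold difference, and rose and fell are used only of genes that did. The 52 factors were brighter than most genes, with a median log2 signal of 9.32 over all arrays against 8.61 for all genes, and 41 of the 52 lay above the median gene. Nol4 (4.16), Noc3l (4.45) and Nol8 (5.57) were close to the lowest possible value. Markers of lung tissue were bright on the same arrays, for example the surfactant proteins Sftpa1 (14.79) and Sftpc (14.60) and the alveolar type I cell marker Ager (13.89), in log2 signal. The arrays of 4 rats, at 2 h Vehicle rat 3 and Severe PE rat 1 and at 18 h Mild PE rat 4 and Vehicle rat 1, had a weak signal at the 5′ end of the Gapdh control transcript (3′ minus 5′ log2 signal of 0.346 to 0.638, against 0.176 to 0.322 on the others).

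At 18 h of Severe PE most of the factors had a higher mean than in Vehicle lungs. Of the 52 genes, 18 rose and 1 fell, whereas 4.29% of all 14217 genes rose and 5.61% fell. The mean was higher in 49 of the 52 genes (49.8% of all genes), and in 33 of them every Severe PE rat lay above every Vehicle rat (14.5% of all genes). The median difference over the 52 factors was 0.60, against -0.003 over all genes. The rises ranged from 1.64 for Emg1, an rRNA methyltransferase of the small subunit pathway, to 0.63 for Noc4l, a nucleolar factor of the small subunit. The only fall was that of Nop53, a large subunit assembly factor also linked to control of p53, by 0.75. Without the 4 arrays of weak 5′ signal 10 genes rose and 1 fell, while leaving out any 1 rat gave 8 to 16 rises, the lowest count without Vehicle rat 3, and a median difference of 0.56 to 0.65. The counts were also more than 1.5 times lower without Vehicle rat 1 (10) or 2 (11) and without Severe PE rat 2 (11) or 3 (10).

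At 18 h of Mild PE the direction was the same but fewer genes passed. Emg1, Nhp2, Rrs1, Utp18 and Wdr12 rose, 5 of 52 against 0.76% of all genes, and none fell (0.675% of all genes). The median difference was 0.52 (-0.004 over all genes), 48 of the 52 means were higher (49.6% of all genes), and in 33 genes every Mild PE rat lay above every Vehicle rat (10.2% of all genes). None of the 5 rises passed without the 4 arrays of weak 5′ signal, which include 1 Vehicle and 1 Mild PE rat of this comparison, and none passed when any 1 of the 3 Vehicle rats or Mild PE rat 1 or 2 was left out. Without Mild PE rat 3, the rat with the lowest values of its group, 10 genes rose. Mild PE and Severe PE were compared with the same 3 Vehicle rats at each time.

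**Figure D1:**
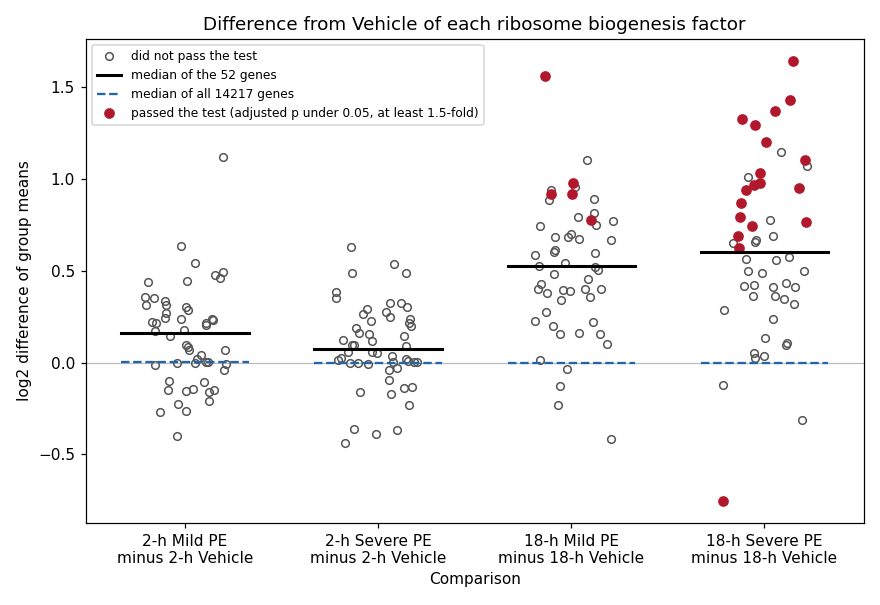
Difference of each of the 52 ribosome biogenesis factors from the Vehicle group of the same time, as the log2 difference of group means (y axis), in 4 comparisons (x axis). Filled points passed the test, open points did not, the black line is the median of the 52 factors and the dashed line that of all 14217 genes; at 18 h the median lies at 0.52 after Mild PE and 0.60 after Severe PE, with Nop53 alone as a filled point below 0.

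The box C/D snoRNP proteins belong to the particles that methylate ribosomal RNA. Fbl encodes fibrillarin, the methyltransferase itself, and its values in each rat are given although it was added to those shown after its values were seen. At 18 h its log2 signal was 11.51, 11.06 and 11.53 in the Vehicle rats, 12.13, 12.25, 11.75 and 12.41 in the Mild PE rats and 12.45, 12.80, 12.90 and 12.49 in the Severe PE rats. Every Severe PE rat lay above every Mild PE rat, and every Mild PE rat above every Vehicle rat. Fbl rose by 1.29 (SE 0.18, limma adjusted p = 0.0159) at Severe PE, and its difference at Mild PE was 0.77 (SE 0.20, adjusted p = 0.12). The 11 rats of the 2-h groups lay between 11.30 and 11.68, with no order of the groups. The core proteins Nop58 and Nop56 did not pass in the 18-h groups. Nop58 was higher by 1.07 at Severe PE (SE 0.27, adjusted p = 0.0655) and by 0.75 at Mild PE, and Nop56 by 0.50 and 0.52. A second, dimmer probe set of Nop56 was higher by 1.62 at 18-h Severe PE and passed (adjusted p = 0.0431), so the probe sets of this gene disagreed in size.

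The box H/ACA proteins form the particles that convert uridine to pseudouridine. Nhp2, a core protein of these particles and of telomerase, had a log2 signal of 11.08, 11.14 and 11.10 in the 18-h Vehicle rats. It was 12.07, 12.10, 11.75 and 12.20 in the 18-h Mild PE rats and 12.23, 12.43, 12.53 and 12.04 in the 18-h Severe PE rats. Both PE groups were clear of the Vehicle rats and overlapped each other, and the 2-h rats lay between 10.68 and 11.04. Nhp2 rose by 0.92 at Mild PE (SE 0.11, adjusted p = 0.0378) and by 1.20 at Severe PE (SE 0.12, adjusted p = 0.00937). Gar1, another core protein, rose by 1.10 at Severe PE (9.11 ± 0.21 in Vehicle, n = 3, to 10.22 ± 0.24, SD, n = 4) and was higher by 0.89 at Mild PE (adjusted p = 0.0899). The other proteins of the same particle did not pass. Nop10, already among the brightest factors at a mean log2 signal of 12.63, differed by 0.09 at Severe PE. Dkc1, which encodes the pseudouridine synthase dyskerin, differed by 0.03 (SE 0.11) with overlapping rats. At 18-h Mild PE Dkc1 differed by -0.23, with means of 9.73 in Vehicle and 9.50 in Mild PE. Nop10 was higher there, at 12.81 against 12.61 in Vehicle. At 18-h Severe PE 2 of the 4 box H/ACA genes therefore rose, too few genes to set against the 4.29% of all genes. Gar1 passed in 4 of the 7 runs that left out 1 rat.

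Ncl and Nolc1 encode nucleolin and Nopp140, abundant nucleolar proteins that bind precursor RNA and snoRNPs. Ncl had a log2 signal of 9.21, 9.78 and 10.37 in the 18-h Vehicle rats, 10.64, 10.65, 9.93 and 10.27 in the Mild PE rats and 10.61, 11.48, 11.04 and 10.61 in the Severe PE rats. All Severe PE rats lay above the Vehicle rats, which were themselves spread over more than 1 log2 unit, and the difference of 1.15 (SE 0.35, adjusted p = 0.103) did not pass. At 2 h Ncl was 10.64, 10.16 and 11.54 in Vehicle, 10.32, 10.48, 10.50 and 10.23 in Mild PE and 11.37, 10.13, 9.92 and 10.14 in Severe PE rats. The highest values there, in Vehicle rat 3 and Severe PE rat 1, were on arrays of weak 5′ signal, and the lowest 18-h value, in Vehicle rat 1, was on another such array. What that signal contributed was not tested. Nolc1 was higher by 0.56 at 18-h Severe PE on its brightest probe set (SE 0.13, adjusted p = 0.0526). Of its other probe sets 2 passed, at 1.01 (adjusted p = 0.0191) and 0.89 (adjusted p = 0.0308), and the dimmest, close to the lowest possible value, was at -0.14.

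In the PeBoW complex, which matures the large subunit RNA, Wdr12 rose at both 18-h doses and Bop1 at Severe PE. Wdr12 went from a log2 signal of 7.81 ± 0.17 in Vehicle (SD, n = 3) to 8.58 ± 0.13 in Mild PE and 8.75 ± 0.20 in Severe PE (n = 4 each), rises of 0.77 (SE 0.11, adjusted p = 0.0472) and 0.94 (SE 0.14, adjusted p = 0.0185). Bop1 was 9.65 ± 0.11 in Vehicle, 10.16 ± 0.37 in Mild PE and 10.34 ± 0.19 in Severe PE, a rise of 0.69 at the higher dose (SE 0.12, adjusted p = 0.0276). Pes1, the remaining subunit, was higher by 0.32 at Severe PE and 0.16 at Mild PE, with overlapping rats, and did not pass. At 18-h Severe PE 2 of the 3 subunits therefore rose, too few genes to set against the 4.29% of all genes. Bop1 passed in only 2 and Wdr12 in 4 of the 7 runs without 1 rat.

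**Figure D2:**
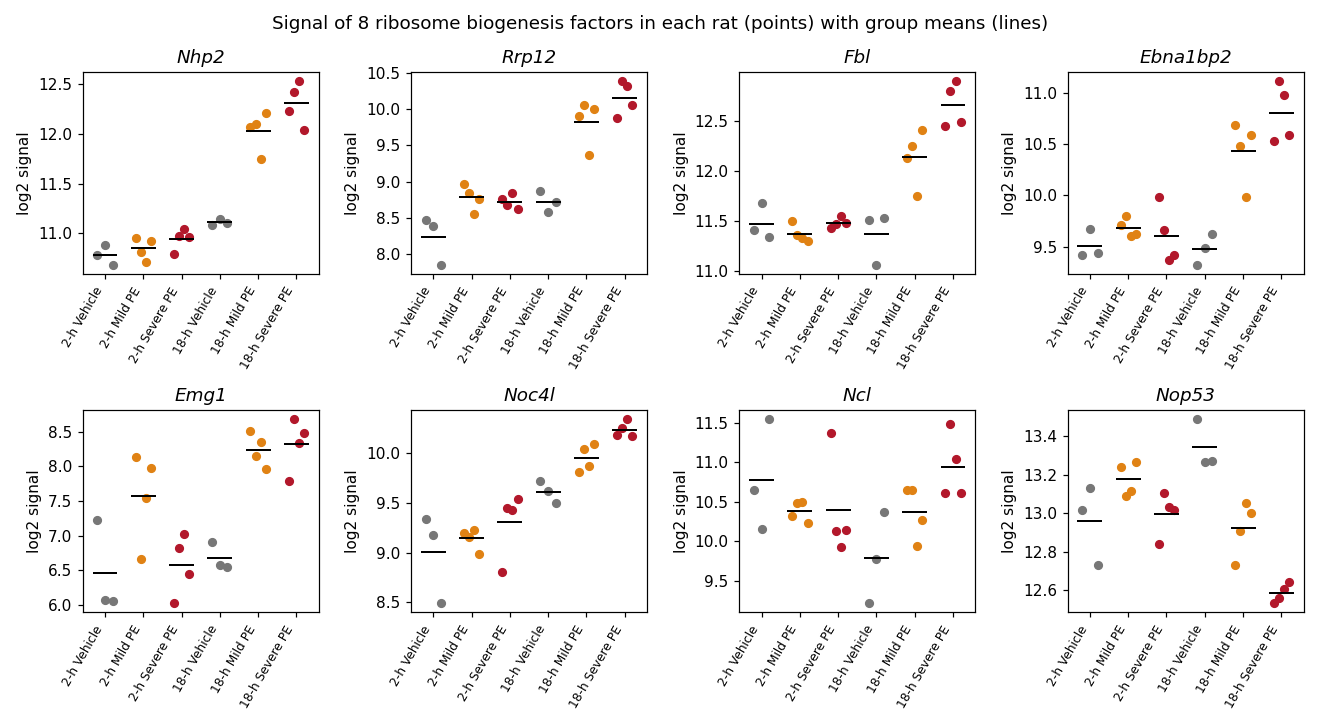
Log2 signal (y axis) of 8 ribosome biogenesis factors in each rat (points) of the 6 treatment groups (x axis), with group means as lines. In Nhp2, Rrp12, Fbl, Ebna1bp2 and Emg1 all 18-h PE rats lie above all 18-h Vehicle rats, in Nop53 all lie below, and in Ncl the 2-h Vehicle and 2-h Severe PE groups each hold 1 rat far above the rest.

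Of 22 factors of the small subunit processome and 40S pathway, 7 rose at 18-h Severe PE (4.29% of all genes) and none fell (5.61%). Their median difference was 0.60. Rrp12, an export and maturation factor of pre-40S particles, showed the pattern rat by rat. Its log2 signal was 8.87, 8.58 and 8.72 in the 18-h Vehicle rats, 9.90, 10.05, 9.36 and 10.00 in the Mild PE rats and 9.87, 10.38, 10.32 and 10.05 in the Severe PE rats. Every PE rat lay above every Vehicle rat, while the 2 doses overlapped. Rrp12 rose by 1.43 at Severe PE (SE 0.15, adjusted p = 0.00946) and was higher by 1.10 at Mild PE without passing (SE 0.19, adjusted p = 0.0618). Its other probe sets were higher by 1.74 (adjusted p = 0.00796) and 0.97 (adjusted p = 0.0607) at Severe PE.

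Emg1, which methylates the small subunit RNA, had the largest difference of any factor in both 18-h comparisons with Vehicle, from a low level. Its log2 signal was 6.91, 6.58 and 6.55 in the 18-h Vehicle rats, 8.51, 8.15, 8.35 and 7.96 in the Mild PE rats and 7.80, 8.68, 8.34 and 8.48 in the Severe PE rats. The PE groups overlapped each other and not Vehicle. The rise was 1.56 at Mild PE (SE 0.16, adjusted p = 0.0286), or 2.95-fold, and 1.64 at Severe PE (SE 0.23, adjusted p = 0.0165), or 3.12-fold, which passed in 5 of the 7 runs without 1 rat. Noc4l was 9.72, 9.62 and 9.50 in the 18-h Vehicle rats, 9.81, 10.04, 9.87 and 10.09 in Mild PE and 10.18, 10.25, 10.34 and 10.18 in Severe PE rats. These 3 groups did not overlap. Noc4l rose by 0.63 at Severe PE (SE 0.07, adjusted p = 0.0117), which passed in 6 of the 7 runs without 1 rat, and the difference at Mild PE was 0.34 (adjusted p = 0.137).

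Rrp9, a protein of the U3 snoRNP that starts processome assembly, was 9.24, 8.92 and 9.10 in the 18-h Vehicle rats, 9.85, 10.25, 9.37 and 9.84 in Mild PE and 9.72, 10.42, 10.31 and 9.79 in Severe PE rats. It rose by 0.98 at Severe PE (SE 0.21, adjusted p = 0.0443), a call that was lost whenever any 1 of the 7 rats was left out. The processome proteins Nop14 (1.03, SE 0.17, adjusted p = 0.0235), Utp15 (0.87, SE 0.15, adjusted p = 0.0246) and Nol10 (0.76, SE 0.14, adjusted p = 0.0283) rose as well, but Nop14 and Utp15 passed in 4 of the 7 runs without 1 rat and Nol10 in 1 of them. Utp18, a processome subunit of low signal, was the member that rose at Mild PE and not at Severe PE. Its log2 signal was 6.25, 5.84 and 6.12 in the 18-h Vehicle rats, 7.13, 7.10, 6.78 and 7.19 in Mild PE and 6.30, 6.87, 7.72 and 6.49 in Severe PE rats. The 4 Mild PE rats lay close together and the 4 Severe PE rats did not, with 1 of them next to the highest Vehicle rat. Utp18 rose by 0.98 at Mild PE (SE 0.14, adjusted p = 0.0481), its difference at Severe PE was 0.77 (SE 0.36, adjusted p = 0.25), and the difference between the doses did not pass (-0.21, SE 0.31, adjusted p = 0.823).

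The other small subunit factors did not pass at Severe PE. Utp6 (0.69), Utp20 (0.65), Utp14a (0.65), Utp23 (0.58), Utp11 (0.49), Nol11 (0.43), Utp3 (0.41), Utp25 (0.41), Utp4 (0.35), Rrp8 (0.29), Nol6 (0.13) and Rrp7a (0.10) all had higher means. Rrp8 was counted with these genes, although it has no settled role in the small subunit. Nop9, an RNA-binding factor of the pathway, had an adjusted p of 0.0371 with a difference of 0.41, which is under 1.5-fold. Nol7 was the exception in direction, at -0.12. A dimmer probe set of Utp6 was higher by 1.11 and passed (adjusted p = 0.0324).

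Of 15 factors of the large subunit, 6 rose (4.29% of all genes) and 1 fell (5.61%) at 18-h Severe PE, with a median difference of 0.67. Ebna1bp2, the homologue of a yeast nucleolar factor of early 60S particles, had a log2 signal of 9.32, 9.49 and 9.63 in the 18-h Vehicle rats. It was 10.68, 10.48, 9.99 and 10.59 in Mild PE and 10.53, 11.12, 10.98 and 10.59 in Severe PE rats. All PE rats were above Vehicle, and the 2-h rats (9.37 to 9.98) overlapped the Vehicle rats. Ebna1bp2 rose by 1.33 at Severe PE (SE 0.18, adjusted p = 0.0149), and its difference at Mild PE was 0.96 (SE 0.19, adjusted p = 0.0724). Mrto4, which holds the place of a stalk protein on pre-60S particles, rose by 1.37 (SE 0.21, adjusted p = 0.0196) and Rrs1, which brings the 5S RNP into the particle, by 0.97 (SE 0.19, adjusted p = 0.036). Rrs1 also rose at Mild PE, by 0.92 (SE 0.13, adjusted p = 0.0479), and each of its calls was lost whenever any 1 of the 7 rats was left out. Nop2, an rRNA methyltransferase known as a proliferation antigen, rose by 0.95 at Severe PE, Nop16 by 0.79 and Nol12 by 0.74. Of the 7 runs without 1 rat, Nop2 and Nop16 passed in 6, Mrto4 in 4 and Nol12 in 1 (adjusted p up to 0.0751).

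Nol12, an RNA-binding nucleolar protein, was 8.32, 8.37 and 8.56 in the 18-h Vehicle rats, 9.21, 9.02, 8.93 and 9.23 in Mild PE and 8.91, 9.25, 9.38 and 9.10 in Severe PE rats. Both PE groups were clear of Vehicle, and the Mild PE difference of 0.68 was just outside the threshold (adjusted p = 0.0509). Nip7, whose product acts in 60S maturation, was also just outside, at 1.01 with an adjusted p of 0.0515 at Severe PE. Noc2l (0.67), Nol9 (0.50, adjusted p = 0.0395 but under 1.5-fold), Rrp1b (0.36), Rrp15 (0.36), Rrp1 (0.24) and Nol8 (0.04) had higher means at Severe PE, and Noc3l, near the lowest possible signal, was at -0.31.

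Nop53 ran against the rest. It was the brightest of the 52 factors, with log2 signals at 18 h of 13.49, 13.27 and 13.27 in Vehicle rats, 12.73, 12.91, 13.05 and 13.00 in Mild PE rats and 12.53, 12.56, 12.61 and 12.64 in Severe PE rats. The groups did not overlap, and each dose step went down. It fell by 0.75 at Severe PE (SE 0.07, adjusted p = 0.00796), to 0.593 of the Vehicle signal, and the Mild PE difference was -0.42 (SE 0.10, adjusted p = 0.107). The 2-h Vehicle rats (13.02, 13.13 and 12.73) were lower than the 18-h Vehicle rats by 0.38 (SE 0.13, adjusted p = 0.30), but all 4 Severe PE rats at 18 h were below them too. In the runs that left out each of the 7 rats in turn, Nop53, Nhp2, Rrp12, Ebna1bp2 and Fbl passed at 18-h Severe PE every time.

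Among the 3 genes matched by name only, Nol3, an inhibitor of cell death, had an adjusted p of 0.0114 at 18-h Severe PE with a difference of 0.56, under 1.5-fold. Nol4 was at the lowest possible signal in most rats. Nol4l was 9.29, 8.48 and 9.08 in the 18-h Vehicle rats, 9.37, 9.09, 9.21 and 9.56 in Mild PE and 9.01, 8.90, 9.05 and 9.04 in Severe PE rats, without separation from Vehicle. None of these 3 genes rose or fell in any comparison of groups, so leaving them out could not change those counts. Without 18-h Vehicle rat 3, however, Nol3 passed at 18-h Severe PE (0.60, adjusted p = 0.0298). It also passed at 18-h Mild PE with 1 fit on all 22 arrays (0.67, adjusted p = 0.0418). Nol3 is among the rises counted in those runs.

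**Figure D3:**
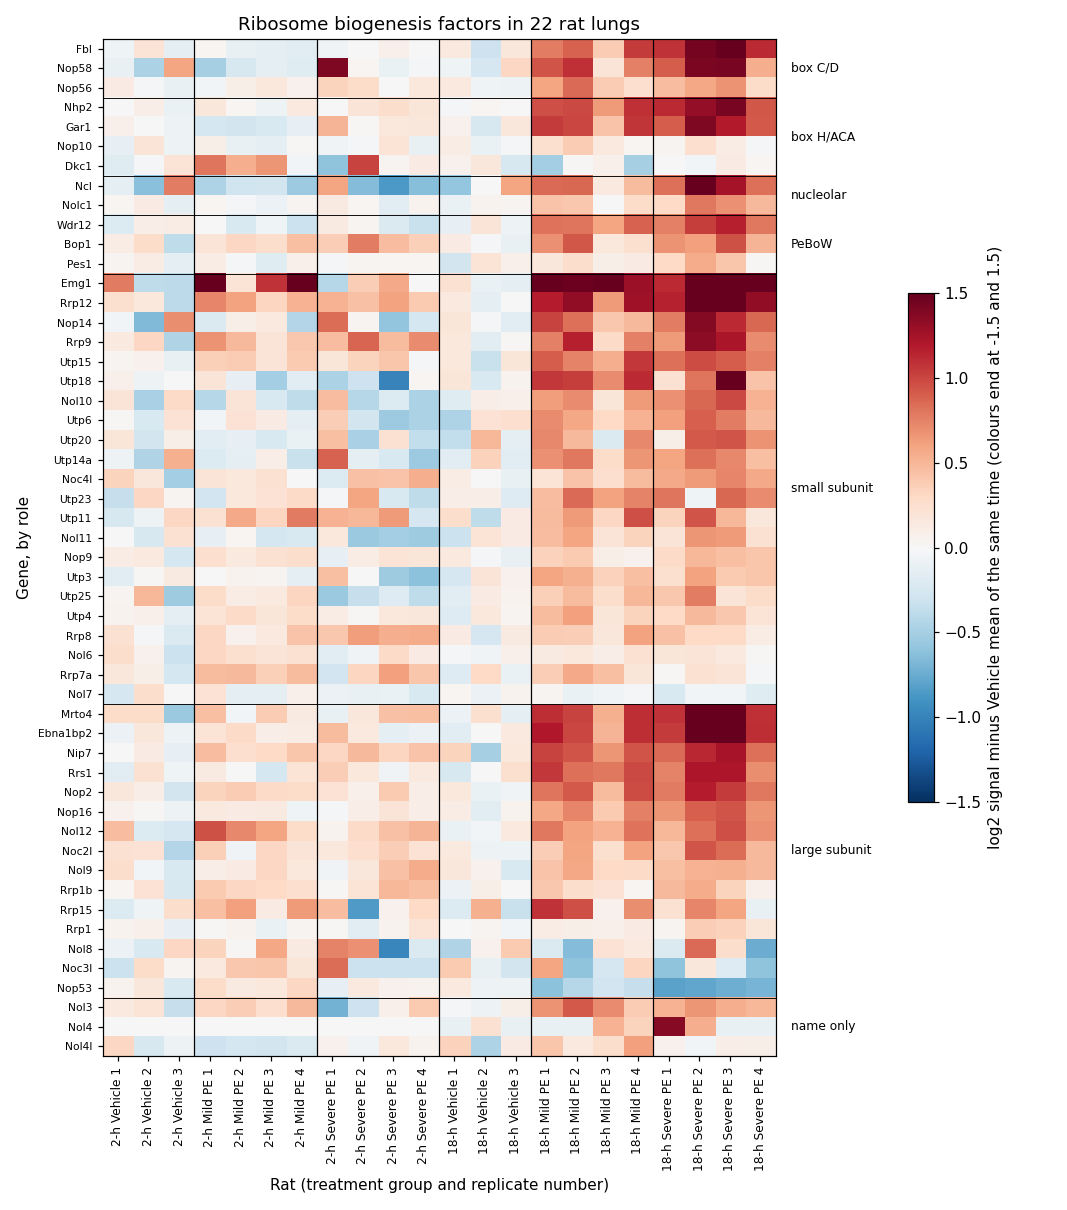
Log2 signal of each of the 52 genes (rows, grouped by role and sorted by the difference at 18-h Severe PE) in each rat (columns), minus the mean of the Vehicle rats of the same time; red is higher, blue lower, and colours end at -1.5 and 1.5. The 18-h PE columns are mostly red in every group of roles, with Nop53 blue. In the 2-h PE columns 31 to 38 of the 52 genes are above the Vehicle mean, against 17 to 33 in the 2-h Vehicle columns.

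The sequences upstream of genes that moved together are shown to let their letters be compared. RefSeq, on the rat genome build GRCr8, gave a window of 250 bases before to 50 after the start for 48 of the 52 genes, and only upstream bases are printed. That start is the outer 5′ end of the gene in 28 of the 48, among them all genes printed, and lies inside the gene in the other 20, by 100 bases or more in 9 of them. Capitals mark the ETS motif CCGGAAGT, on either strand, and the E-box CACGTG, the letters bound by Myc with its partner Max. The first 5 genes rose at 18-h Severe PE, Nop53 fell, and Pes1 did not pass. Pes1 was picked because it holds an E-box upstream of the start. Mrto4, whose rise of 1.37 at 18-h Severe PE was larger than those of Ebna1bp2, Fbl and Nhp2, is not printed. Its 250 upstream bases hold neither motif.
Emg1, chr4:159203827-159204076, minus strand: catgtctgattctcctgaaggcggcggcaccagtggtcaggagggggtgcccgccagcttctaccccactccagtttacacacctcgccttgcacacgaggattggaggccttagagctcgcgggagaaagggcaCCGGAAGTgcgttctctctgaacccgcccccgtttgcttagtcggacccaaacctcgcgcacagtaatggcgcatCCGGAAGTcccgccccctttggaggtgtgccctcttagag
Rrp12, chr1:250655319-250655568, minus strand: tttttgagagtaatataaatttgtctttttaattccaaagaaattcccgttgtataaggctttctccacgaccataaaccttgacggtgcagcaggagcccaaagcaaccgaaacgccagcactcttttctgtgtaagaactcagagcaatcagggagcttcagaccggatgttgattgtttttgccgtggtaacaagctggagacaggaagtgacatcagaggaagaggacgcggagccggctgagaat
Ebna1bp2, chr5:137433284-137433533, plus strand: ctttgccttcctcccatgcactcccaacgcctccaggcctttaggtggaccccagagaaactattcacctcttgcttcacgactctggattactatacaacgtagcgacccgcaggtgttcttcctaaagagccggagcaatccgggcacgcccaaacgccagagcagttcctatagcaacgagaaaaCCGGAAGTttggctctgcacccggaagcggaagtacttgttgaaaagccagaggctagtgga
Fbl, chr1:92597157-92597406, plus strand: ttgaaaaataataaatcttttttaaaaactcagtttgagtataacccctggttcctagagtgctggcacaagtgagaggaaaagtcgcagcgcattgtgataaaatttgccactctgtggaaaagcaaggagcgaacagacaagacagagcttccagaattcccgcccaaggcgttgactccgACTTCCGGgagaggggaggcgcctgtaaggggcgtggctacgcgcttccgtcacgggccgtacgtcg
Nhp2, chr10:36377770-36378019, plus strand: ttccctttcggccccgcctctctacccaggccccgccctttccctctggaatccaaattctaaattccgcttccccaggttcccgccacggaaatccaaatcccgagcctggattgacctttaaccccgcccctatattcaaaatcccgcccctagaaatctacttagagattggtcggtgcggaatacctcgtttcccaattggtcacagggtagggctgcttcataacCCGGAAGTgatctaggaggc
Nop53, chr1:85765090-85765339, minus strand: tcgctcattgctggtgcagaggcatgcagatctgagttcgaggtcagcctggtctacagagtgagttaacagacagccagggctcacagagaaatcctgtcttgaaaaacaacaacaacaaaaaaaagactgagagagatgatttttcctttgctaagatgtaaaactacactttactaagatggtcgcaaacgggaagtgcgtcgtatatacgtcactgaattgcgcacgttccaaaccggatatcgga
Pes1, chr14:83074096-83074345, plus strand: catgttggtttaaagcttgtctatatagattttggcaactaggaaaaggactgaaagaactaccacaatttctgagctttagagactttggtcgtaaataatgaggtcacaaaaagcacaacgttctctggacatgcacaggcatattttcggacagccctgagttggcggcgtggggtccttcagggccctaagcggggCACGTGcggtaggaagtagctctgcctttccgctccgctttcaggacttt
Emg1 holds the ETS motif in 2 places, Ebna1bp2, Fbl and Nhp2 in 1 place each, and Rrp12 and Nop53 hold neither motif upstream of the start. In the 50 bases after the start, which are not printed, Rrp12, Fbl and Ebna1bp2 each hold an E-box, which begins at base 4, 22 and 31. Over the 300-base windows, 14 of the 48 genes (29.2%) held the ETS motif, against 6.38% of the 13193 genes of the array with such a window, and 17 (35.4%) held an E-box, against 8.65%. Of the 16 genes that rose at 18-h Severe PE and had a window, 4 held an E-box (25%), as did 13 of the other 32 (40.6%). For the ETS motif these counts were 7 of 16 (43.8%) and 7 of 32 (21.9%). The GC box GGGCGG was in 66.7% of the factors' windows and 55.8% of those of the array's genes, the CCAAT box in 22.9% and 36.8%, and the cyclic AMP response element TGACGTCA in 4.17% and 2.71%. Both strands were searched, on which the E-box and the cyclic AMP response element read the same, and none of the motifs contains another. These are matches of letters and not bound sites.

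Each rat can also be described by the median, over the 52 factors, of its deviation from the Vehicle mean of its time. At 18 h this was 0.59, 0.63, 0.28 and 0.57 in the Mild PE rats and 0.49, 0.79, 0.72 and 0.49 in the Severe PE rats, against -0.01 to 0.03 in the Vehicle rats. All 8 PE rats stood above the Vehicle rats, Mild PE rat 3 was the lowest of them, and the doses overlapped. In each PE rat at 18 h, 44 to 49 of the 52 genes were above their Vehicle mean, while the median over all genes lay between -0.02 and 0.03 in every 18-h rat. At 2 h the medians were 0.19, 0.12, 0.15 and 0.14 in Mild PE and 0.14, 0.06, 0.08 and 0.05 in Severe PE rats. The 2-h Vehicle rats were at 0.04, 0.08 and -0.10, the lowest being the rat with an array of weak 5′ signal, so that only Mild PE lay above all of them.

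**Figure D4:**
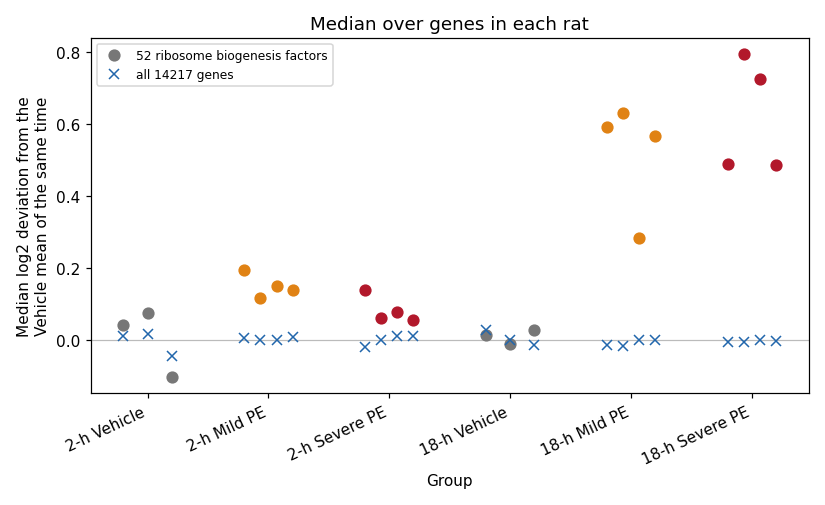
Median over the 52 factors of the log2 deviation from the Vehicle mean of the same time (y axis), for each rat (filled points, grey for Vehicle, orange for Mild PE, red for Severe PE) in the 6 groups (x axis), with the same median over all 14217 genes as crosses. The 18-h PE rats lie between 0.28 and 0.79 and the crosses stay near 0.

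At 2 h no factor passed the test at either dose. After Mild PE 0.331% of all genes rose and 0.0985% fell, and of the 52 factors 11 had an unadjusted limma p under 0.05, of which 10 were higher (8.53% of all genes were higher at that level). The mean was higher in 36 of the 52 (53.7% of all genes). The smallest adjusted p was 0.154, for Utp15 (0.33, SE 0.07). The median difference was 0.16 (0.01 over all genes), and it went down to 0.07 without 2-h Vehicle rat 3. The processome gene Utp15, the large subunit gene Nip7 (0.36, SE 0.08, adjusted p = 0.173) and Rrp12 (0.54, SE 0.18, adjusted p = 0.301) were among those higher in every Mild PE rat than in any Vehicle rat, as 8 of the 52 were (8.34% of all genes).

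Emg1 had the largest 2-h difference, 1.12 (SE 0.47, adjusted p = 0.393), with log2 signals of 7.23, 6.08 and 6.06 in Vehicle rats and 8.13, 6.66, 7.55 and 7.97 in Mild PE rats. One Mild PE rat lay below the highest Vehicle rat. In the 2-h Severe PE rats Emg1 was 6.02, 6.83, 7.02 and 6.45, within the Vehicle range or below it. Nol12 was 8.54, 7.87 and 7.83 in Vehicle, 9.04, 8.81, 8.68 and 8.36 in Mild PE and 8.14, 8.37, 8.53 and 8.59 in Severe PE rats. Its difference at Mild PE was 0.64 (SE 0.24, adjusted p = 0.348), with overlap. Ncl (-0.40) and Nol4l (-0.27, 9.59, 9.04 and 9.21 in Vehicle and 8.97 to 9.06 in the 4 Mild PE rats) had the lowest differences, and neither passed.

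After 2 h of Severe PE 0.0422% of all genes rose and none fell, and of the 52 factors none passed, with 5 at an unadjusted limma p under 0.05, all higher (4.85% of all genes). The mean was higher in 37 of the 52 (51.4% of all genes), and in 5 of them every Severe PE rat lay above every Vehicle rat (4.29% of all genes). The median difference was 0.07 (0 over all genes). Rrp9 had log2 signals of 8.62, 8.78 and 8.02 in 2-h Vehicle, 9.15, 8.96, 8.67 and 8.88 in 2-h Mild PE and 8.93, 9.35, 8.95 and 9.18 in 2-h Severe PE rats. Severe PE rats all lay above Vehicle, by 0.63 (SE 0.21, adjusted p = 0.553). Rrp8, a nucleolar methyltransferase tied to silencing of ribosomal genes, was 8.26, 8.02 and 7.83 in Vehicle, 8.35, 8.10, 8.18 and 8.46 in Mild PE and 8.45, 8.67, 8.59 and 8.60 in Severe PE rats. Its difference was 0.54 (SE 0.11, adjusted p = 0.296), and again no rats overlapped. Utp18 was lowest in difference, at -0.44, with 6.66, 6.50 and 6.59 in Vehicle and 6.11, 6.27, 5.58 and 6.61 in Severe PE rats. Without 2-h Vehicle rat 3, the median difference of the 52 factors was 0.04.

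No factor differed between the doses by the test. At 2 h, where 0.302% of all genes were higher and 0.246% lower in Severe than in Mild PE, the factor nearest to passing was Utp25, a processome-linked protein, lower by 0.58 in Severe PE (SE 0.09, adjusted p = 0.0525). Without Severe PE rat 1 a different factor, Noc3l, met the threshold, but the other 3 Severe PE rats were all at the floor of 4 there and the Mild PE rats at 4.47 to 4.73, so this is no measured difference. At 18 h no gene at all passed in either direction (0% of 14217), and 5 of the 52 factors had an unadjusted limma p under 0.05, of which 2 were higher (8.04% of all genes) and 3 lower (9.26%) in Severe PE. Fbl (0.52, SE 0.17, adjusted p = 0.252) and Noc4l (0.28, SE 0.08, adjusted p = 0.196) were higher in all Severe PE rats than in all Mild PE rats (4.9% of all genes), and Nop53 (-0.34, SE 0.08, adjusted p = 0.149) and Nol4l (-0.31, adjusted p = 0.263) lower (5.75%). The median of the 52 differences between doses was 0.13 at 18 h and 0.003 at 2 h. At 18 h it was 0.07 to 0.18 without 1 rat, with 0.07 without Mild PE rat 3, 0.08 without Severe PE rat 2 and 0.09 without Severe PE rat 3.

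The Vehicle groups of the 2 times did not differ in any factor by the test, nor in any of the 14217 genes (0%). By unadjusted limma p under 0.05, 11 factors differed, 9 of them higher at 18 h (13.1% of all genes were higher at that level). Ncl (-0.99, SE 0.48, adjusted p = 0.389), Bop1 (0.74, SE 0.19, adjusted p = 0.242) and Rrp8 (0.66, SE 0.17, adjusted p = 0.238) had the largest differences. The median over the 52 was 0.12 (0.06 over all genes), and 0.04 without 2-h Vehicle rat 3.

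When time and dose were fitted together on all 22 arrays, 27 of the 52 factors passed for at least 1 term (29.2% of all genes), 26 for the time (22.6%), 22 for the dose (13.7%), and 8 for their interaction (5.35%). The 8 were Ebna1bp2, Fbl, Gar1, Nhp2, Nop16, Nop53, Rrs1 and Wdr12, with adjusted p from 0.0036 for Nhp2 to 0.0445 for Rrs1. The difference between the effect at 18 h and that at 2 h was then tested for each dose. For Severe PE the effect was more positive at 18 h in 10 factors (3.36% of all genes) and more negative in 1, Nop53 (4.86%). The 10 became 6 to 17 without 1 rat, with 6 without 2-h Vehicle rat 1 or 18-h Vehicle rat 2 and 17 without 2-h Severe PE rat 1, while 1 gene was more negative in each of these runs. For Mild PE it was more positive in Gar1, Nhp2 and Wdr12 (3 of 52, 0.478% of all genes) and more negative in Nop53 (0.647%), and these 4 calls were lost in many of the runs without 1 rat. Emg1, with a 2-h Mild PE difference of 1.12 and an 18-h difference of 1.56, was in neither set.

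Other genes of the pathway, listed from general knowledge, were counted in the same way. Of all 14217 genes, 4.29% rose and 5.61% fell at 18-h Severe PE, and 0.76% rose and 0.675% fell at 18-h Mild PE. Of 86 further ribosome assembly factors measured, 20 rose at 18-h Severe PE and none fell, with a median difference of 0.46, and 1 rose at Mild PE (median 0.38). The nucleolar regulator Mybbp1a rose by 0.76 (SE 0.08, adjusted p = 0.0104), Rcl1, which cuts precursor RNA in the processome, by 1.02 (SE 0.12, adjusted p = 0.0108) and Gnl3, a nucleolar GTPase of growing cells, by 0.87 (SE 0.11, adjusted p = 0.0146). Gnl3 was the 1 that rose at Mild PE, by 0.64. Of 15 genes of RNA polymerase I and its factors, 2 rose at Severe PE, the subunits Polr1e (1.35, SE 0.26) and Polr1g (1.15, SE 0.24), and none at Mild PE. Ubtf, the main activator of ribosomal gene transcription, was lower by 0.34 (adjusted p = 0.0301) and Polr1d higher by 0.45 (adjusted p = 0.0318), both under 1.5-fold. None of 11 nuclear exosome genes, which trim precursor RNA, passed (median 0.26 at Severe PE).

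The proteins that make up the ribosome itself were counted beside the factors that assemble it. Of 48 cytosolic ribosomal protein genes 1 rose at 18-h Severe PE (4.29% of all genes), Rpl4 (0.84, SE 0.17, adjusted p = 0.0385), and none fell (5.61%). The count of rises is not above that share. Their median difference was 0.06 (0.05 at Mild PE). These genes have many processed pseudogenes, and probe sets may not separate all copies. Of 10 Myc family regulators, too few to set against the 4.29% of all genes, 1 rose at Severe PE, Myc itself. Its log2 signal was 9.20 ± 0.33 in 18-h Vehicle (SD, n = 3), 10.19 ± 0.37 in Mild PE and 10.50 ± 0.29 in Severe PE (n = 4 each), a rise of 1.30 at the higher dose (SE 0.22, adjusted p = 0.0252) and a difference of 0.99 at Mild PE (adjusted p = 0.116). At 2 h Myc was 8.82 ± 0.31 in Vehicle, 9.26 ± 0.26 in Mild PE and 10.53 ± 0.33 in Severe PE, where the difference of 1.71 (SE 0.23, adjusted p = 0.135) did not pass although no rats overlapped. At that time and dose the 52 factors had a median difference of 0.07. Mxd3, a Myc antagonist, fell at 18-h Mild PE by 1.22 (SE 0.12, adjusted p = 0.0286). Of the same list, Mlx was higher by 0.48 at 18-h Severe PE (SE 0.08, adjusted p = 0.024), under 1.5-fold. Mxi1 was lower there by 0.58 without passing (SE 0.20, adjusted p = 0.14).

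**Figure D5:**
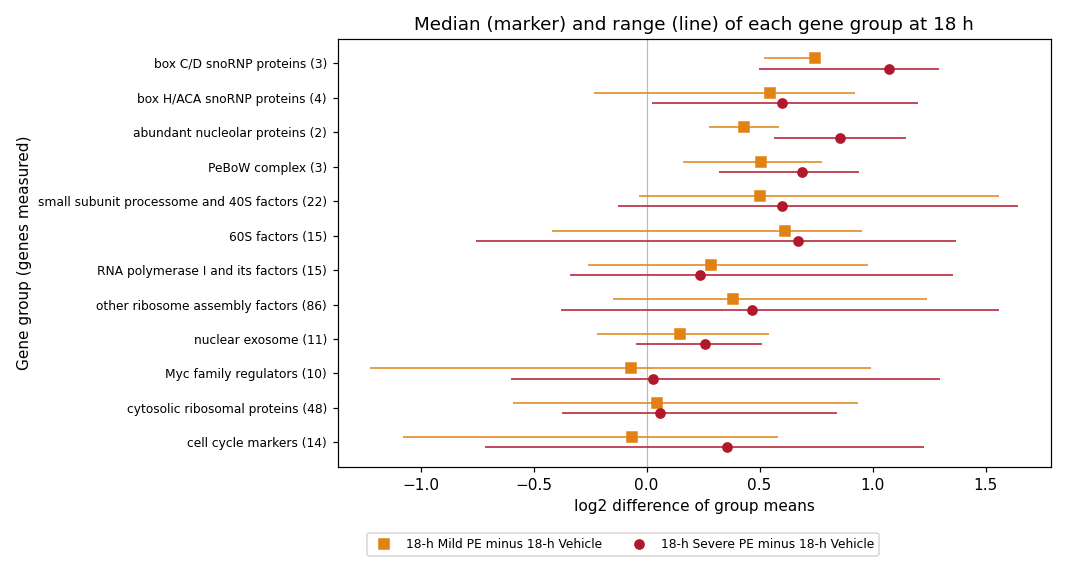
Median (markers) and lowest to highest (lines) log2 difference of the genes of each group at 18 h, Mild PE as squares and Severe PE as circles, with the number of genes measured in brackets. Groups of assembly factors have medians from 0.38 to 1.07 and the 48 ribosomal protein genes 0.05 and 0.06.

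The arrays measured whole lung, so a higher share of a cell type rich in these RNAs and more RNA per cell cannot be told apart. At 18-h Severe PE 4.29% of all genes rose and 5.61% fell. Of the 14 neutrophil and 12 macrophage markers listed, 8 each were measured. Of the 8 neutrophil markers none passed at 18-h Severe PE, but all 8 means were higher. Their summed signal ranged from 20177 to 42335 in Severe PE, from 14830 to 36239 in Mild PE and from 13681 to 26004 in Vehicle rats. Of 8 macrophage markers 1 rose, Cd14 (1.18), and 5 of the 8 means were higher (-0.53 to 1.18), with sums of 41226 to 44669, 43506 to 47047 and 37331 to 40534 in the same order. Macrophage sums of the PE rats did not overlap those of Vehicle, but Lyz2, the brightest of these markers (mean log2 signal 14.43), weighs most in them. Of 8 endothelial markers 4 fell at Severe PE (Tie1, Vwf, Emcn and Ramp2, -0.70 to -0.88), and all 8 means were lower (-0.88 to -0.16). Their sums were 36133 to 43475 in Severe PE, 43845 to 56448 in Mild PE and 60433 to 65873 in Vehicle rats, without overlap. Of 8 lymphocyte markers 3 fell (Cd79b, Cd3g and Lck, -0.95 to -1.21), with sums of 4142 to 6411, 5261 to 9214 and 9164 to 11707.

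Of 10 epithelial markers 1 rose at 18-h Severe PE (4.29% of all genes), Lamp3 (1.05), and 5 of the 10 means were higher (-1.12 to 1.05). Ager had the smallest adjusted p (0.00923), with a difference of -0.52, and Sftpa1 was at 0.25 (adjusted p = 0.0366), both under 1.5-fold. The sums overlapped, at 160377 to 173288 in Severe PE, 161469 to 169147 in Mild PE and 161638 to 178804 in Vehicle rats. Of 4 red cell markers none passed, but all 4 means were lower at Severe PE (-2.03 to -0.08). Their sums were 21367 to 31014, 29621 to 33488 and 31895 to 35146 in the same order, with Severe PE clear of Vehicle. Of 14 cell cycle genes 3 rose at Severe PE, the DNA replication genes Mcm6 (1.23), Mcm5 (1.07) and Pcna (0.64), and none at Mild PE. At Severe PE 11 of the 14 means were higher (-0.72 to 1.23), and at Mild PE 6 of the 14 (-1.08 to 0.58). Sums of the 14 genes were 7269 to 7713 in Severe PE, above the 5020 to 6923 of Mild PE and the 5198 to 5899 of Vehicle rats. Pcna, at a mean log2 signal of 11.51 in 18-h Severe PE, weighs heavily in these sums. The defining markers of these cell types were above the lowest possible signal on nearly all arrays, Mmp8 being at it on 1 array. The part of these cell types in the differences of the ribosome biogenesis factors was not tested.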

How the data were processed

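The authors deposited 1 linear intensity per probe set and array, scaled so that each array has a trimmed mean of 500.2, and not the GC-RMA values of the published methods. They were therefore made by another summary of the same arrays. Array controls (57 of 31099 probe sets) were left out, signals under 16 (13.6% to 17.3% per array) were set to 16, and log2 values were quantile normalized. Of 31042 probe sets 20826 had 1 gene symbol, 436 several and 9780 none. Each gene is given by its brightest probe set. Groups were tested with limma 3.58.1 in R 4.3.3 (functions lmFit and eBayes), on the pair of groups compared, or on all 22 arrays for the 2-way model and the contrasts between times. P-values were adjusted over all probe sets. The unadjusted limma p is named as such. The number of arrays limits the precision, and the labels give no batches. The fit was tested on simulated data. The members and gene lists were chosen with earlier results of these data known. Per-rat values are given for the 5 factors with the smallest adjusted p at 18-h Severe PE, the 2 largest differences in each direction in each 2-h comparison, and Fbl. Of other lists up to 3 genes with the smallest adjusted p are named, with every gene that passed where these were 5 or fewer. Alternatives were other scalings, floors, filters, fits and samples.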

Additional observations from a re-analysis of the deposited data

Results flagged for a closer look

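Among the genes shown rat by rat and the median of the 52 factors, 56 groups of 4 rats were searched for a rat far from the others, and 2 were found, where chance alone flags about 1 group in 20. Ncl in 2-h Severe PE rat 1 was at a log2 signal of 11.37, with the other 3 rats at 9.92 to 10.14. Noc4l in the same rat was at 8.80, with the others at 9.43 to 9.54. That rat's array had weak 5′ Gapdh signal (3′ minus 5′ log2 of 0.525), and its part in these values was not tested.

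The effect of PE differed between 18 h and 2 h, by a limma contrast on all 22 arrays, in the following genes. For Mild PE the differences, 18 h minus 2 h, were 1.11 for Gar1, 0.93 for Wdr12, 0.85 for Nhp2 and -0.64 for Nop53, with adjusted p from 0.025 to 0.0421. For Severe PE they were 1.28 for Fbl, 1.23 for Ebna1bp2, 1.13 for Mrto4, 1.04 for Nhp2, 1.04 for Wdr12, 0.95 for Rrp12, 0.89 for Gar1, 0.81 for Rrs1, 0.75 for Nop2, 0.70 for Nop16 and -0.79 for Nop53, with adjusted p from 0.00138 to 0.0435.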

How the results depend on the processing

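No called difference of a named gene changed sign under the alternatives run, while the median difference between the 2-h doses, 0.003, lay between -0.06 and 0.02. The 18 rises at 18-h Severe PE became 10 without the 4 arrays of weak 5′ signal and between 15 and 24 under the other scalings, floors, filters and fits without a block. Without 1 rat they were 8 to 16, the low values being 8, 11 and 10 without Vehicle rat 3, 2 or 1 and 10 and 11 without Severe PE rat 3 or 2, and the fall of Nop53 was found each time (1 to 1). The 5 rises at 18-h Mild PE became 1 with median centring, 3 with no further normalization, 2 with a floor of 64, 12 with dim probe sets left out, 10 with the mean of a gene's probe sets, 17 with 1 fit on all 22 arrays, and 0 both with the methods' unmoderated test and without the 4 arrays. Without 1 rat they were 0 to 10, with 1 left without Mild PE rat 4. With the replicate number as a block, the rises became 0 at both 18-h doses and the fall 0, so that all calls of the pairwise comparisons were lost. The labels share replicate numbers between groups and do not say that these pair the rats. Over all probe sets, residuals of same-numbered arrays correlated at -0.273 to 0.123 (median -0.014, 23 pairs). The residuals are taken from means of 3 or 4 arrays, so they cannot show whether the numbers pair the rats in some genes.

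The Mild PE contrast between times lost its 3 positive calls (0) with median centring and without the 4 arrays, and its negative call (0) with these and with dim probe sets left out. Without 1 rat these counts were 0 to 6 and 0 to 1. The 10 positive Severe PE contrasts became 6 with median centring, and 6 to 17 without 1 rat, with 6 without 2-h Vehicle rat 1 or 18-h Vehicle rat 2 and 17 without 2-h Severe PE rat 1. The interaction count of 8 was 5 to 12, with 5 without 18-h Vehicle rat 2 and 12 without 2-h Severe PE rat 1. Between 2-h doses 1 gene passed lower with no further normalization (Utp25) and without the 4 arrays (Noc3l), and 0 to 1 without 1 rat (Noc3l, without Severe PE rat 1, where the other Severe PE rats are at the floor). The Vehicle groups differed in 2 genes with 1 fit on all 22 arrays, and their median difference of 0.12 became 0.28 with median centring. The median difference at 18-h Mild PE was 0.47 to 0.63 without 1 rat, with 0.63 without Mild PE rat 3. The cause of these moves was not tested. Signals near the floor limit Nol4, Noc3l and Nol8.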
